A study of Homo sapiens with 9 samples.

Results

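The histone genes of U2OS cells, a human osteosarcoma line, were examined here in 9 RNA-seq libraries. Members were protein-coding genes whose symbol starts with H1-, H2AC, H2BC, H3C or H4C and a number, together with H2AX, H2AZ1, H2AZ2, H2AJ, H3-3A, H3-3B, MACROH2A1 and MACROH2A2. Of the 70116 gene IDs in the count table, 82 met this rule. They were divided by gene name into 69 replication-dependent genes (H1-1 to H1-5 and all H2AC, H2BC, H3C and H4C genes) and 13 variant genes (the others). The 3 groups held 3 libraries each: vehicle-treated wild-type cells, wild-type cells kept in palbociclib for 4 days, and cells with a CRISPR/Cas9 knockout of PERK, likewise given palbociclib for 4 days. A vehicle-treated knockout was not analysed here, so a difference between the genotypes refers to palbociclib-treated cells. The labels do not say whether the knockout is 1 clone or a pool, nor whether the numbered sets 1 to 3 were separate cultures, and p-values measure only the spread between these libraries.

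Histones H2A, H2B, H3 and H4 make up the core of the nucleosome, and H1 binds the linker DNA that leaves it. The replication-dependent genes lie in clusters, mostly lack introns, and are transcribed during S phase, when cyclin E and CDK2 act on the coactivator NPAT. Their mRNAs normally end in a stem-loop, which is bound by SLBP and cut with the help of the U7 small nuclear RNP, and not in a poly(A) tail. Some of these genes can also yield a tailed mRNA from a signal downstream of the stem-loop. Variant histone genes are expressed outside S phase too, mostly as spliced and polyadenylated mRNAs. CDK4 and CDK6, which push cells from G1 towards S phase, are the targets of palbociclib. The gene EIF2AK3 encodes PERK, which senses stress in the endoplasmic reticulum and phosphorylates the translation factor eIF2.

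The RNA was purified on poly-T beads, so the 3′ end bears on which of these transcripts could be captured. The stem-loop was sought in GENCODE 29 transcripts (GRCh38) as the 16 letters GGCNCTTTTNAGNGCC, and was found in 28 of the 65 replication-dependent genes with a model and in 1 of 13 variant genes, H2AX. The genes below carry the 5 forms seen among measured members and the form of H2AX, with the stem-loop in capitals and 5 bases on either side, 5′ to 3′ on the transcribed strand.
H2BC21: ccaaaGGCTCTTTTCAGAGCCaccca
H2AC6: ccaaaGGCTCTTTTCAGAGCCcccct
H3C10: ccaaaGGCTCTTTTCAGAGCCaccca
H2BC4: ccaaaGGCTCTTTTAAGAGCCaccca
H2AC11: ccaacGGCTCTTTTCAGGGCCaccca
H4C8: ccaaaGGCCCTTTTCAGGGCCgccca
H4C9: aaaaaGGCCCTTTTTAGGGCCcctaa
H2AX: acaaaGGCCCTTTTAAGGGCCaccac
The form of H2BC21, H2AC6 and H3C10 was found in 15 genes, and that of H2BC4 in 4. Among the 15 is H2BC15 (RefSeq chr6:27838569-27839110), whose match lies at chr6:27865778-27865793, inside H2AC16 (chr6:27865317-27865798). A transcript of the H2BC15 model extends to that site, so the match is not a stem-loop within the RefSeq interval of H2BC15. H2AC11 was alone with its form. The form of H4C8 was found in 5 genes and that of H4C9 in 3, all of them H4 genes. The 37 replication-dependent models without a match include many that stop where the coding sequence ends, so the absence of a match does not mean that the gene has no stem-loop.

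Few of the clustered genes were well represented. The low-count filter kept 27 of the 69 replication-dependent and 10 of the 13 variant genes, and only these were tested. The 42 replication-dependent genes left out had at most 65 counts over the 9 libraries (H4C12), and 14 of them had none, among them H2BC1, H2AC1 and H4C7. H1-6, H1-7 and H1-8, linker histones of the germ line, had at most 3 counts over the 9 libraries. Of the 23 replication-dependent genes whose model runs at least 100 bases past the stem-loop, 14 passed the filter and 10 had a mean of at least 1 count per 1000000 counts of its library (CPM). H2BC15, whose match lies inside H2AC16, is among the 10. Of the 5 whose model ends within 100 bases, 2 passed and none reached 1 CPM. The 37 models without a match included 10 that passed and 5 that reached 1 CPM, with H2BC12 the highest. The other 4 replication-dependent genes are in the count table but have no GENCODE 29 model, so the counting used another annotation. Where its models end is not known, and the levels are set here beside models that may differ from those counted. The filter keeps a gene that is high in only 1 group, so counts and medians over the genes that passed are descriptions.

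Library totals lay between 33674039 and 42577874 counts, and levels are given as CPM on the total scaled by TMM factors of 0.977 to 1.01. EIF2AK3 stood at 35.7, 36.8 and 31.8 CPM in wild-type cells on palbociclib and at 19.7, 18.7 and 17.8 in the knockout (-0.89 ± 0.068, log2 fold change with its standard error; edgeR adjusted p = 5.98e-09), and the labels do not say which part was edited. The mesenchymal markers VIM, COL1A1 and SPARC were abundant, while COL1A2 stood at 1.36 to 3.11 CPM and TWIST1 at 0.11 or less. The list of 8 summed to 6002 to 6541 CPM on vehicle, 9229 to 10630.1 on palbociclib and 9196 to 11329 in the knockout. The 4 haematopoietic markers summed to at most 0.722 CPM and the 4 endothelial markers to at most 4.11. The 5 epithelial markers summed to 632 to 667 CPM on vehicle, 843 to 896 on palbociclib and 554 to 577 in the knockout, mostly from KRT8 and KRT18. RN7SL1, RMRP and SNORD3A, RNAs without a poly(A) tail, were the 3 of 11 on such a list that passed the filter. Their log2 fold changes were -0.26, -0.11 and -0.15 for palbociclib and 0.19, -0.81 and -0.83 for the knockout (edgeR adjusted p = 0.627, 0.441 and 0.0592, the last 0.0489 with the numbered set of libraries as a block). SNORD3A was lower in the knockout than in vehicle-treated wild-type cells (-0.98 ± 0.31, adjusted p = 0.0123). The part that markers of other cell types or untailed RNA play in the histone results was not tested.

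On palbociclib, 3 of the 27 tested replication-dependent genes rose in wild-type cells and 7 fell, so they were called no more often than genes in general. H1-2, the most counted linker histone of the clusters, fell, as did the H2A genes H2AC6, H2AC12 and H2AC20 and the H4 genes H4C8, H4C9 and H4C14. The H2B genes H2BC5, H2BC15 and H2BC21 rose. The median log2 fold change of the 27 was -0.11, beside 43.7% of all 19408 tested genes called (21.3% higher and 22.3% lower at an edgeR adjusted p under 0.05) and a median of -0.021. Without the third wild-type palbociclib library only 3 fell, and the median was 0.04. In bulk poly-T-selected RNA, fewer cells in S phase, less RNA per cell and a changed tailed share of these mRNAs cannot be told apart.

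H1-2, at chr6:26055740-26056470 (RefSeq, GRCh38.p14, as for all gene positions given), stood at 214, 195 and 198 CPM in the 3 vehicle libraries and at 128, 111 and 109 CPM on palbociclib. All 3 treated libraries lay below all 3 vehicle libraries, and the log2 fold change was -0.81 ± 0.061 (edgeR adjusted p = 4.23e-09). H2AC20, an H2A gene of the chromosome 1 cluster at chr1:149886918-149887411, stood at 2.63, 2.98 and 3.22 CPM on vehicle and at 1.68, 1.7 and 1.5 on palbociclib, again without overlap (-0.86 ± 0.18, adjusted p = 0.000604). Of the 50-base windows of its model, 30.5% recur in another transcript, so reads of near-identical copies may be divided among them. H2AC6, the most counted H2A gene of this class, had 69.5, 68.6 and 68.2 CPM on vehicle and 65, 58.6 and 49.9 on palbociclib (-0.25 ± 0.075, edgeR adjusted p = 0.0126). The treated libraries were all lower, but the call was lost without the third of them (adjusted p = 0.102).

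Among the H4 genes, which nearly all encode the same protein, H4C9 changed most. It had 70, 77 and 80 counts on vehicle and 10, 17 and 15 on palbociclib, and 23, 12 and 8 in the knockout. Its log2 fold change for palbociclib was -2.33 ± 0.29 (edgeR adjusted p = 1.68e-06), and the knockout libraries spanned those of treated wild-type cells. H4C9 lies at chr6:27139282-27139678, inside the RefSeq interval of H2BC12 (chr6:27138293-27146858), and the sources used here do not give the strand setting of the counting, so reads of the 2 genes may not be separated. H4C8 stood at 14.3, 12.3 and 14.7 CPM on vehicle and 12.1, 11.2 and 10.4 on palbociclib (-0.29 ± 0.093, edgeR adjusted p = 0.016), with each treated library below each vehicle library. H4C14 went from 2.13, 2.38 and 2.34 CPM to 1.56, 1.97 and 1.11 (-0.56 ± 0.19, adjusted p = 0.0227). Both calls were lost on leaving out any of 3 libraries in turn, the third palbociclib library among them, with adjusted p of 0.0514 to 0.159. H4C14 was not called with DESeq2 either (adjusted p = 0.0787), and 97.5% of the windows of H4C14 recur elsewhere. H4C16, the H4 gene on chromosome 12, outside the clusters, had 3.34, 3.57 and 3.83 CPM on vehicle and 3.01, 2.97 and 2.89 on palbociclib (-0.27 ± 0.13, adjusted p = 0.105). Its groups did not overlap, but it did not pass.

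The H2B genes rose or were not called. H2BC21, on chromosome 1 at chr1:149884459-149886682, stood at 31.1, 38.7 and 32.9 CPM on vehicle and 45, 44.7 and 41.8 on palbociclib. Every treated library was above every vehicle library (0.35 ± 0.082, edgeR adjusted p = 0.00214). H2BC5 had 15.2, 15.7 and 13.3 CPM on vehicle and 22.4, 18.3 and 17.5 on palbociclib, with no overlap (0.39 ± 0.092, adjusted p = 0.00164). H2BC15 had 4.15, 3.18 and 2.89 CPM on vehicle and 5.28, 4.34 and 4.24 on palbociclib (0.43 ± 0.15, edgeR adjusted p = 0.02), and its call was lost without the second or the third vehicle library or the first palbociclib library (adjusted p of 0.0814 to 0.113). H2BC12, the most counted H2B gene, had 192, 158 and 145 CPM on vehicle and 171, 164 and 136 on palbociclib, and the groups overlapped (-0.08 ± 0.11, adjusted p = 0.631). H2BC11 (-0.09 ± 0.11) and H2BC4 (-0.11 ± 0.18) also had overlapping groups and did not pass.

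Of the 4 tested H3 genes, none was called for palbociclib, by edgeR, by DESeq2 or at an unadjusted edgeR p under 0.05. H3C10 stood at 3.7, 4.59 and 3.91 CPM on vehicle and 4.69, 4.42 and 4.45 on palbociclib (0.15 ± 0.15, edgeR adjusted p = 0.454), and H3C6 at 1.19, 1.33 and 1.46 against 1.65, 1.89 and 1.55 (0.36 ± 0.19, adjusted p = 0.149). The treated libraries of H3C6 were all higher, those of H3C10 not. The H2A gene H2AC11 held 2.76, 2.74 and 2.86 CPM on vehicle and 2.74, 2.94 and 2.95 on palbociclib, with overlapping groups (0.05 ± 0.14). The 12 tested genes below 1 CPM had log2 fold changes for palbociclib between -2.33 and 0.38, and 2 of them fell, H4C9 and H2AC12. H2AC12 had 10, 25 and 6 counts on vehicle and 2, 6 and 6 on palbociclib (-1.42 ± 0.54, edgeR adjusted p = 0.0397). At this depth its call rested on single libraries: it was lost without the second vehicle library or any palbociclib library (adjusted p of 0.0574 to 0.372), and with DESeq2 (0.103).

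**Figure D1:**
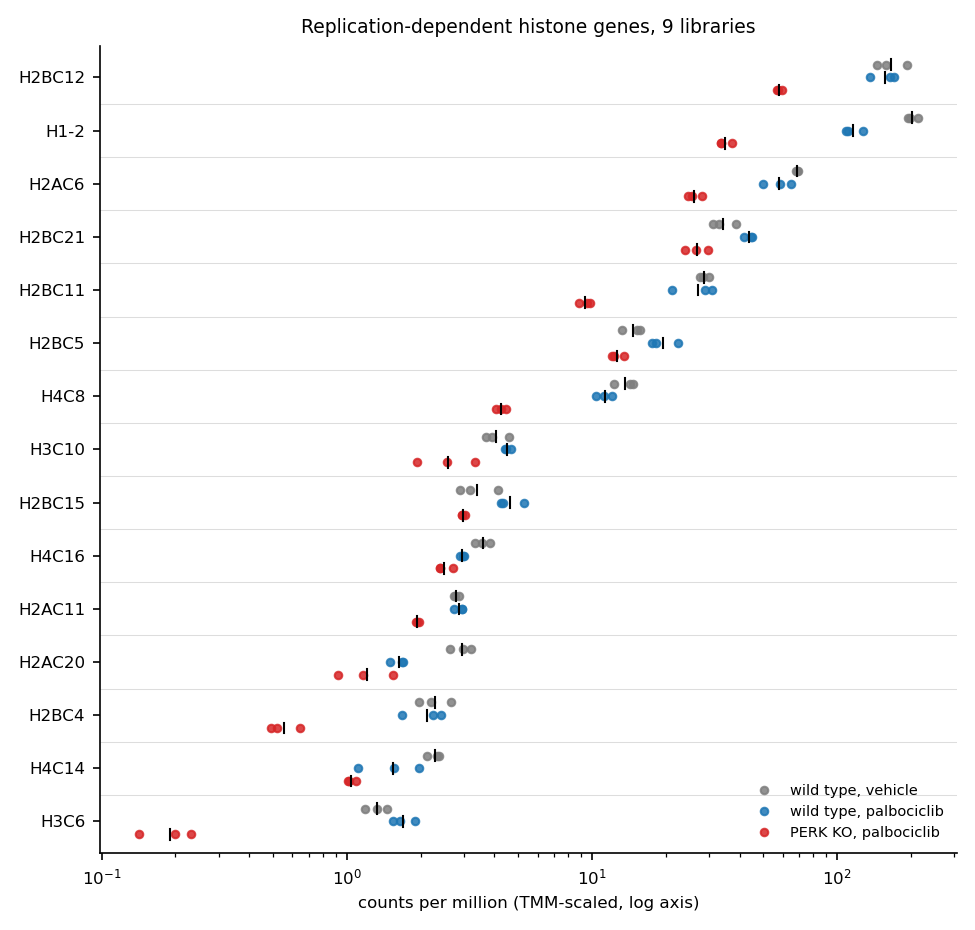
Level of the 15 replication-dependent histone genes with a mean of at least 1 CPM, on a log axis of CPM; each dot is a library, short bars are group means, and colours mark the 3 groups. The knockout dots of H1-2, at 33.5 to 37.2 CPM, lie left of all others of that gene, and those of H3C6, at 0.142 to 0.231 CPM, are the lowest plotted.

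The variant genes mostly fell on palbociclib. Of 10 tested, 7 fell and 1 rose, and the median log2 fold change was -0.51, beside 22.3% of all tested genes lower, 21.3% higher and a median of -0.021. H2AX, at chr11:119093874-119095465, which is phosphorylated at DNA breaks, changed most among them. It stood at 279, 249.7 and 247 CPM on vehicle and 140.4, 138 and 120.4 on palbociclib (-0.96 ± 0.075, edgeR adjusted p = 1.3e-07), and the groups lay far apart. H2AX overlaps DPAGT1 in the annotation, and it is the variant gene whose model carries a stem-loop.

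H1-10, a linker histone, had 226, 221 and 218 CPM on vehicle and 149.6, 161 and 138 on palbociclib (-0.57 ± 0.063, edgeR adjusted p = 7.55e-07), and the groups did not overlap. H2AZ1 and H2AZ2 encode near-identical H2A.Z proteins that sit beside promoters. H2AZ1 had 687, 676 and 734 CPM on vehicle and 494, 509.8 and 461 on palbociclib (-0.52 ± 0.058, edgeR adjusted p = 5.42e-07). H2AZ2 had 409.9, 408 and 411 against 278, 289 and 279 (-0.54 ± 0.045, adjusted p = 1.08e-08), and neither pair of groups overlapped.

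The macroH2A genes encode H2A variants with a large extra domain and went in opposite directions. MACROH2A1 stood at 179, 174 and 174 CPM on vehicle and 122, 126 and 124 on palbociclib (-0.50 ± 0.044, edgeR adjusted p = 2.03e-08). MACROH2A2 stood at 46, 48.9 and 45.3 against 48.3, 56 and 56.7 (0.20 ± 0.061, adjusted p = 0.0124), with the first treated library inside the vehicle range, and was not called without the second treated library (adjusted p = 0.0721). H3-3A and H3-3B encode the same H3 variant, which is deposited outside replication. H3-3B had 683, 673 and 684 CPM on vehicle and 609, 623 and 577 on palbociclib (-0.17 ± 0.046, edgeR adjusted p = 0.00466, and 0.065 without the third palbociclib library). H3-3A had 181, 187 and 204 against 166, 179 and 191, which overlapped (-0.09 ± 0.056, adjusted p = 0.183, and 0.0445 with the set number as a block). H2AJ, an H2A variant known from senescent cells, had 14.9, 16.4 and 16 CPM on vehicle and 14.4, 13.8 and 14.4 on palbociclib (-0.15 ± 0.071, edgeR adjusted p = 0.0862).

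**Figure D2:**
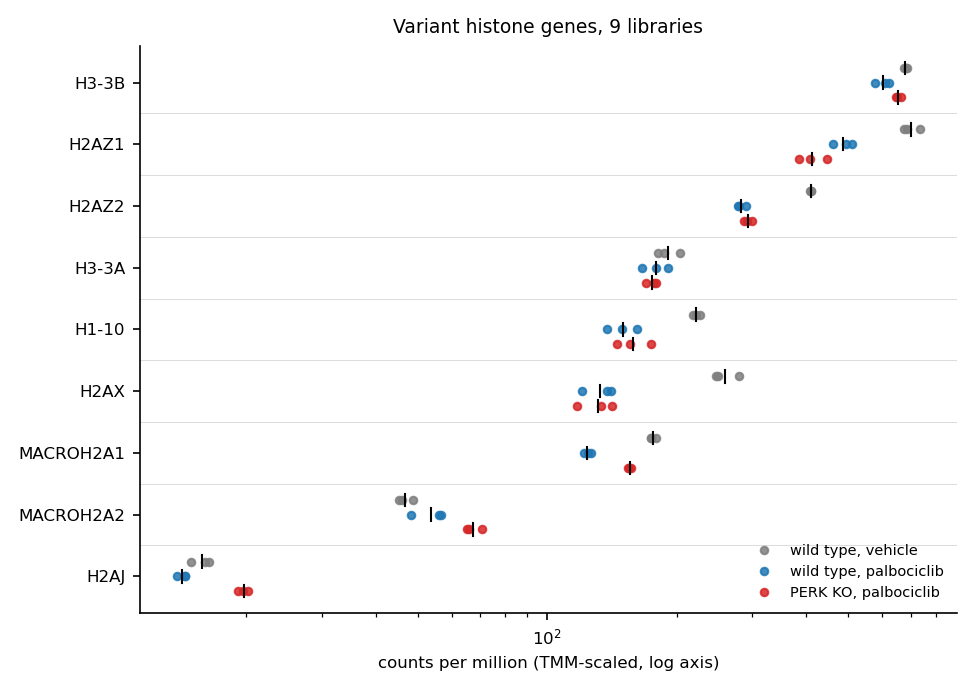
Level of 9 tested variant histone genes on a log axis of CPM; each dot is a library, short bars are group means, and colours mark the 3 groups. For H2AX the vehicle dots lie at 247 to 279 CPM and both palbociclib groups at 118 to 142, while for H2AJ the knockout dots, at 19.1 to 20.2 CPM, are the highest.

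In this poly-T-selected RNA, the knockout on palbociclib held less replication-dependent histone mRNA than wild-type cells across all 5 histone types. A lower level of these mRNAs and a smaller tailed share of them cannot be told apart here. Of the 27 tested genes, 13 were lower and 1 was higher, with a median log2 fold change of -0.63, beside 27.9% of all tested genes called (13.0% lower and 14.9% higher) and a median of 0.013. Of the 15 with a mean of at least 1 CPM, 12 were lower, with a median of -0.78, and H2AC20, H4C14 and H4C16 were not called. That mean is over all 9 libraries, so a gene such as H3C6 can reach it through the wild-type groups alone. Among the 12 tested genes below 1 CPM, 1 was lower and 1 higher, with a median of -0.4. The lower genes were 6 of 8 tested H2B genes, 2 of 6 H2A, 2 of 4 H3, 2 of 7 H4 and 1 of 2 H1. By place, 12 of the 23 tested genes of the chromosome 6 cluster were lower, with a median of -0.78, and 1 of 3 in the chromosome 1 cluster. This comparison and that of palbociclib with vehicle share the wild-type palbociclib libraries.

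H1-2 stood at 128, 111 and 109 CPM in wild-type cells and 37.2, 33.6 and 33.5 in the knockout. The lowest wild-type library was well above the highest knockout library, and the log2 fold change was -1.73 ± 0.065 (edgeR adjusted p = 3.64e-13). The other tested H1 gene of the cluster, H1-4, had 12, 13 and 17 counts in wild-type and 10, 8 and 6 in knockout libraries (-0.89 ± 0.47, adjusted p = 0.168), and was not called.

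H2BC12 stood at 171, 164 and 136 CPM in wild-type cells and 57.5, 59.3 and 57 in the knockout (-1.44 ± 0.12, edgeR adjusted p = 2.34e-05). H2BC11 had 28.9, 30.9 and 21.2 CPM against 9.52, 9.79 and 8.82 (-1.53 ± 0.12, adjusted p = 3.93e-07), and H2BC4 had 2.24, 2.43 and 1.68 against 0.646, 0.491 and 0.522 (-1.92 ± 0.23, adjusted p = 1.8e-06). In these H2B genes, which were not called for palbociclib in wild-type cells, every knockout library was below every wild-type library. Of the 50-base windows of the short H2BC12 model, 74.1% recur in another transcript. The H2B genes that rose on palbociclib were lower in the knockout too. H2BC21 had 45, 44.7 and 41.8 CPM in wild-type cells and 24, 26.5 and 29.6 in the knockout (-0.71 ± 0.083, edgeR adjusted p = 6.45e-06), H2BC5 22.4, 18.3 and 17.5 against 12.3, 12.1 and 13.5 (-0.62 ± 0.093, adjusted p = 3.98e-05), and H2BC15 5.28, 4.34 and 4.24 against 2.96, 2.95 and 3.04 (-0.63 ± 0.15, adjusted p = 0.00295). None of the 3 had overlapping groups. H2BC6 and H2BC7, below 1 CPM, had log2 fold changes of -0.15 and -0.35 and were not called.

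Of the H2A genes, H2AC6 stood at 65, 58.6 and 49.9 CPM in wild-type cells and 28.2, 24.7 and 25.5 in the knockout (-1.14 ± 0.079, edgeR adjusted p = 1.94e-08), and H2AC11 at 2.74, 2.94 and 2.95 against 1.91, 1.93 and 1.97 (-0.57 ± 0.14, adjusted p = 0.00527). Both were without overlap. H2AC20 had 1.68, 1.7 and 1.5 CPM against 1.54, 0.924 and 1.16 (-0.42 ± 0.2, edgeR adjusted p = 0.133), where the first knockout library lay among the wild-type ones. Without that library H2AC20 was called lower (-0.63, adjusted p = 0.042). H3C6, at chr6:26224178-26227473, changed most of all members called: it had 56, 70 and 59 counts in wild-type and 8, 8 and 6 in knockout libraries. That is 1.65, 1.89 and 1.55 CPM against 0.199, 0.231 and 0.142 (-3.15 ± 0.27, edgeR adjusted p = 2.99e-08), with a wide gap between the groups at few counts. H3C10 stood at 4.69, 4.42 and 4.45 CPM against 2.56, 1.93 and 3.32 (-0.78 ± 0.16, adjusted p = 0.000968). The 2 other tested H3 genes, H3C1 and H3C2, had -0.83 and -0.95 and were not called (adjusted p = 0.114 and 0.052; H3C2 0.0319 with the set number as a block).

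H4 genes differed among themselves. H4C8 stood at 12.1, 11.2 and 10.4 CPM in wild-type cells and 4.27, 4.07 and 4.46 in the knockout, far below (-1.40 ± 0.1, edgeR adjusted p = 4.16e-09). H4C16 had 3.01, 2.97 and 2.89 against 2.41, 2.4 and 2.7 (-0.24 ± 0.14, adjusted p = 0.228) and H4C14 1.56, 1.97 and 1.11 against 1.02, 1.01 and 1.09 (-0.57 ± 0.21, adjusted p = 0.0546, and 0.0354 with the block or 0.0072 without the third wild-type library). Neither gene had overlapping groups, and neither passed. H4C3 was the member called higher. It had 18, 14 and 15 counts in wild-type and 46, 26 and 30 in knockout libraries (1.01 ± 0.31, edgeR adjusted p = 0.0182). The groups did not overlap, but the call was lost with DESeq2 (adjusted p = 0.0558) and without the second or the third wild-type or the first knockout library (0.0528 to 0.119). H4C11, with 17, 22 and 16 counts in wild-type and 9, 6 and 14 in knockout libraries (-1.02 ± 0.36, adjusted p = 0.038), was called lower although below 1 CPM, and 81.2% of its windows recur elsewhere. Its call was lost with DESeq2 (0.122), without a low-count filter (0.0697) and without the first or second library of either group (0.0788 to 0.14).

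**Figure D3:**
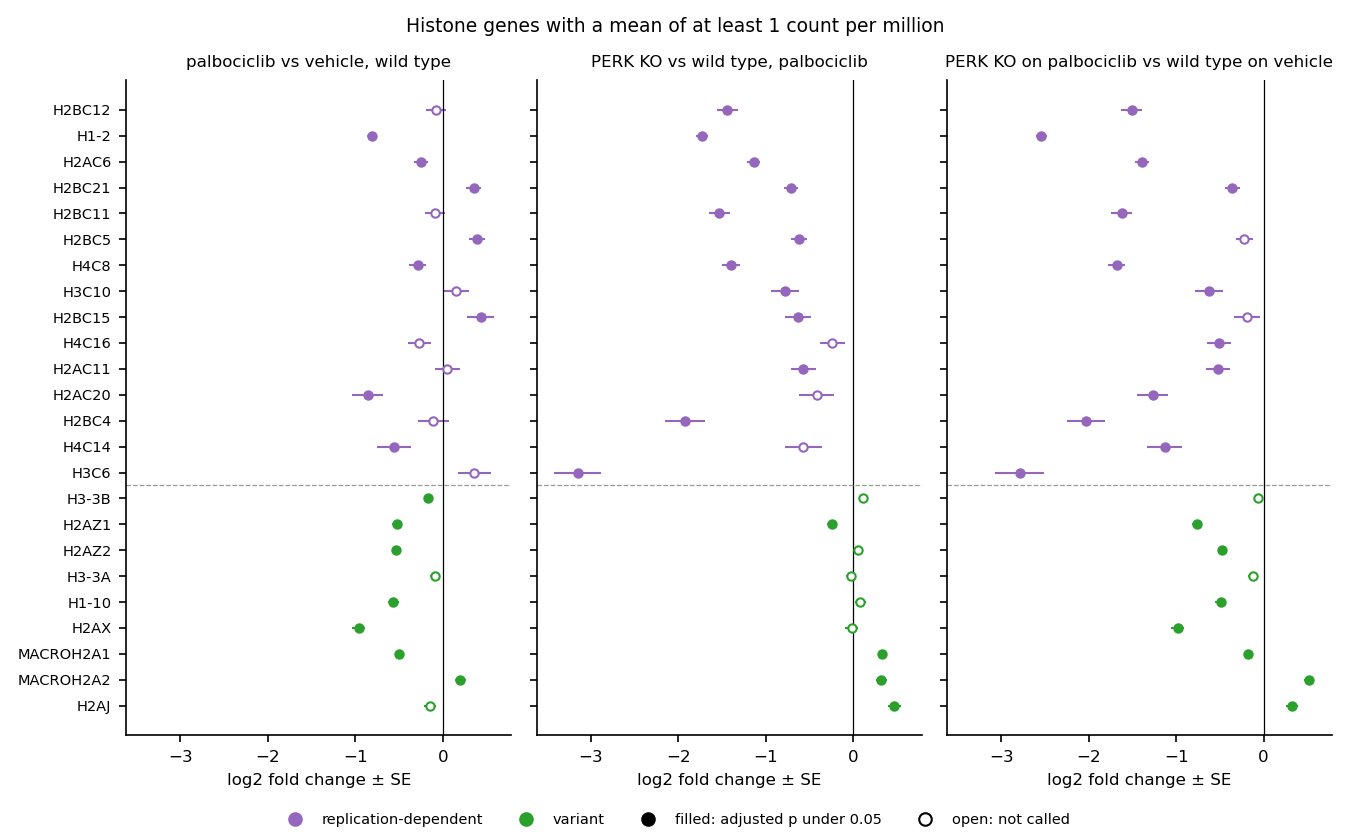
Log2 fold changes with standard errors of 24 histone genes with a mean of at least 1 CPM in the 3 comparisons; filled symbols have an edgeR adjusted p under 0.05, and the dashed line divides replication-dependent genes (above) from variant genes (below). In the knockout against wild type on palbociclib, all 15 replication-dependent genes shown lie left of 0, from -3.15 for H3C6 to -0.24 for H4C16, while the variant genes shown lie between -0.24 and 0.47. The 12 tested replication-dependent genes below 1 CPM, not shown, had values between -1.02 and 1.24.

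Of the 10 tested variant genes, 3 were higher in the knockout than in wild-type cells on palbociclib and 1 was lower, beside 14.9% of all tested genes higher and 13.0% lower. Their median was 0.09. With the set number as a block 5 were higher and 1 lower, beside 19.5% and 16.9% of all tested genes. H2AJ stood at 14.4, 13.8 and 14.4 CPM in wild-type cells on palbociclib and 20.2, 19.1 and 19.6 in the knockout, with all knockout libraries higher (0.47 ± 0.07, edgeR adjusted p = 3.27e-05). MACROH2A1 had 122, 126 and 124 against 154, 157 and 155 (0.33 ± 0.044, adjusted p = 1.06e-05), so the knockout lay between vehicle and palbociclib levels of the wild type. MACROH2A2 had 48.3, 56 and 56.7 against 65.9, 70.4 and 65 (0.32 ± 0.061, adjusted p = 0.000433), above both wild-type groups. H2AZ1 was the gene called lower, at 494, 509.8 and 461 CPM in wild-type cells and 447, 408 and 384 in the knockout (-0.24 ± 0.058, edgeR adjusted p = 0.00367).

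Some of these shifts were shared by other genes nearby. Among tested non-histone genes within 5 Mb, the median log2 fold change between the genotypes was 0.29 around MACROH2A1 (83 genes), -0.26 around H2AZ1 (28 genes) and 0.24 around H2AJ (42 genes). Around MACROH2A2 it was -0.05 (86 genes), against 0.32 for the gene itself. Around H3-3B, which was called higher with the set number as a block, it was 0.18 (118 genes), against 0.11 for the gene itself. H2AZ1 and MACROH2A1 differed from their neighbourhood by less than the standard error of their own change. The part of the neighbourhood in these calls was not tested. H2AX had 140.4, 138 and 120.4 CPM in wild-type cells and 142, 134 and 118 in the knockout (-0.02 ± 0.075, edgeR adjusted p = 0.873), and H2AZ2 278, 289 and 279 against 299.8, 292 and 286 (0.05 ± 0.045). H1-10 had 149.6, 161 and 138 against 156, 174 and 146 (0.08 ± 0.063). H3-3B stood at 609, 623 and 577 CPM against 651, 663 and 645 (0.11 ± 0.046, edgeR adjusted p = 0.0733, and 0.0122 with the block), and H3-3A at 166, 179 and 191 against 170.0, 179 and 177 (-0.03 ± 0.056). Apart from H3-3B, the groups of these genes overlapped.

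Set against vehicle-treated wild-type cells, the knockout on palbociclib combines both differences. Of the 27 tested replication-dependent genes, 19 were lower, with a median of -1.03, beside 51.7% of all tested genes called, 26.0% lower and 25.7% higher. None was higher by edgeR or DESeq2, nor at an unadjusted edgeR p under 0.05. H1-2 changed by -2.54 ± 0.065 on the log2 scale and H3C6 by -2.79 ± 0.28. The H2B genes that had risen on palbociclib ended near or below the vehicle level: H2BC21 at -0.36 ± 0.084 (edgeR adjusted p = 0.00178), H2BC15 at -0.19 ± 0.15 (adjusted p = 0.298) and H2BC5 at -0.22 ± 0.094 (adjusted p = 0.0524, and 0.0191 with the set number as a block). Of the 10 variant genes 6 were lower and 2 higher, with a median of -0.33. H2AX was lowest (-0.98 ± 0.075, adjusted p = 5.4e-08), and MACROH2A2 (0.52 ± 0.061) and H2AJ (0.32 ± 0.069) were the higher ones. H3-3A, not called, had -0.12 ± 0.056 (adjusted p = 0.0778, and 0.0102 with the block).

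Summed over its genes in the poly-T-selected RNA, the replication-dependent class was lower in every knockout library than in any treated wild-type library. The variant sums overlapped. The 69 replication-dependent genes summed to 599, 552 and 534 CPM on vehicle, 504, 469 and 414 on palbociclib and 193, 188 and 193 in the knockout, with means of 562 ± 33.9, 462 ± 45.2 and 191 ± 3.09 CPM (SD, n = 3). The 3 groups did not overlap, and the knockout mean was 0.414 of the wild-type mean on palbociclib. The sum of 12 variant genes was 2706, 2654 and 2734 CPM on vehicle, 2021, 2096 and 1961 on palbociclib and 2106, 2096 and 1995 in the knockout. Their palbociclib mean was 0.751 of the vehicle mean, and the genotypes overlapped on palbociclib, with a ratio of 1.02. For every 100 variant CPM there were 22.1, 20.8 and 19.5 replication-dependent CPM on vehicle, 24.9, 22.4 and 21.1 on palbociclib and 9.16, 8.96 and 9.68 in the knockout. Members were chosen with these data known, so these sums carry no test. H1-2, H2BC12, H2AC6, H2BC21 and H2BC11 held between 80.0% and 89.6% of the replication-dependent sum in each library.

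By histone type, the H1 sum was lowest in the knockout relative to treated wild-type cells, with a ratio of 0.301, and it rests on H1-2. The H2B sum had a ratio of 0.437, the H3 sum 0.463, the H2A sum 0.484 and the H4 sum 0.542. On palbociclib in wild-type cells the H2B sum stood at 256 ± 28.3 CPM against 251 ± 26 on vehicle, with overlapping libraries, while the H1 sum stood at 116 ± 10.2 against 203 ± 9.8. H2A went from 77.2 ± 0.579 to 64.6 ± 7.66 CPM and H4 from 24.2 ± 1.44 to 18.4 ± 1.11, both without overlap. The ratio of the palbociclib mean to the vehicle mean was 0.838 for H2A and 1.02 for H2B, its partner in the nucleosome.

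**Figure D4:**
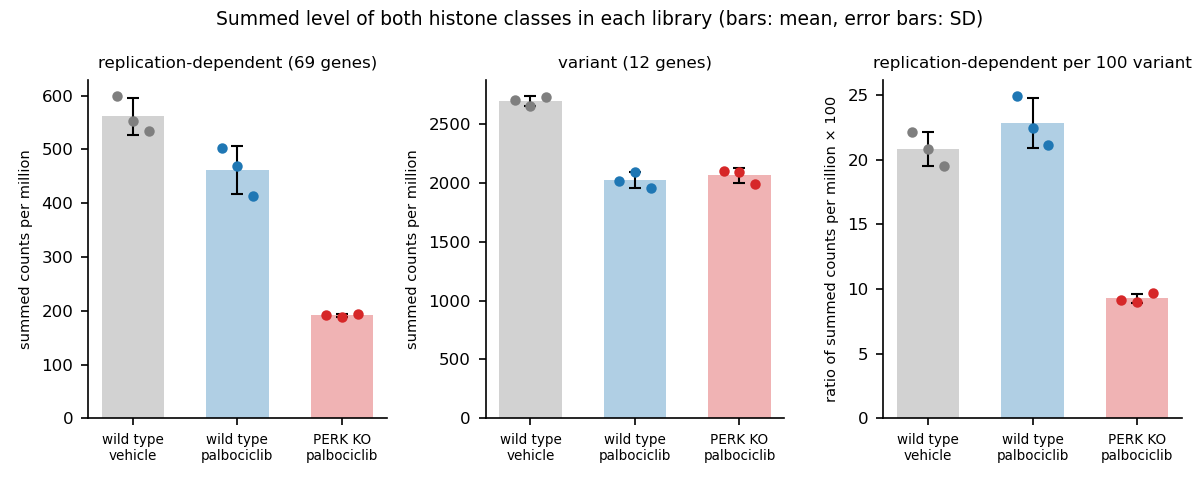
Summed CPM of the 69 replication-dependent genes (left) and 12 variant genes (middle), and the first per 100 of the second (right); dots are libraries, bars means and error bars SD of 3 libraries, and each axis starts at 0. The knockout libraries hold 188 to 193 replication-dependent CPM against 414 to 504 in treated wild-type cells, while the variant sums of these groups overlap.

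Many H2A and H2B genes stand head to head and share the DNA between their start sites. RefSeq start sites gave 12 such pairs among the members. The intervals of 3 pairs with both genes above 1 CPM follow, on the plus strand of GRCh38.p14 (RefSeq), with the octamer in capitals. The octamer is the element bound by OCT1, the product of POU2F1, and is known from H2B promoters.
H2AC6 and H2BC4, chr6:26123927-26124171: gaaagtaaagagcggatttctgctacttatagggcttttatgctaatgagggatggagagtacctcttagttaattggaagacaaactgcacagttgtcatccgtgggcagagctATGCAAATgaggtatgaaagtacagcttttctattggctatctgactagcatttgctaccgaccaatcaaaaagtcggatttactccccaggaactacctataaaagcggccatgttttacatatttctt
H2AC11 and H2BC11, chr6:27132796-27133042: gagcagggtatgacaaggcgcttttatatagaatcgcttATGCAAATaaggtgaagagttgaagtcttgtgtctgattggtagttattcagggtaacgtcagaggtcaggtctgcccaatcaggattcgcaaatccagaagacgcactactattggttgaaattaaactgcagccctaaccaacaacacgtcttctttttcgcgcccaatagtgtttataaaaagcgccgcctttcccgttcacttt
H2AC20 and H2BC21, chr1:149886683-149886917: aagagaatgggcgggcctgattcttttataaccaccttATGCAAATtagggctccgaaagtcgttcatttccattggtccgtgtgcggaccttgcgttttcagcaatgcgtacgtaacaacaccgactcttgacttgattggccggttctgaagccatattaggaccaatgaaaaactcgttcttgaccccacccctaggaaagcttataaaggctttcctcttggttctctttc
Each interval holds the octamer once and the letters of the CCAAT box, which NF-Y binds, on either strand. In the 250 bases before the start, the octamer ATTTGCAT, read on both strands, was in 26 of the 63 replication-dependent genes with a promoter entry (41.3%), in 14 of 18 H2B genes and in 1 of 12 variant genes, H3-3B, against 1.66% of 27305 promoters. The CCAAT box was in 84.1% of the replication-dependent promoters against 33.0%, TATAAA in 66.7% against 11.1%, and the E2F letters TTTNGCGC in 17.5% against 1.54%. The 250 bases reach across the interval of a head-to-head pair, so 1 octamer can count for both of its genes. This holds for the 3 pairs printed above, whose genes are among the 9 tested genes with the octamer. Between the genotypes 6 of 9 tested genes with the octamer and 7 of 16 without it were lower, with medians of -0.71 and -0.70. For palbociclib the medians were -0.08 and -0.28, and the difference between these sets of genes was not tested.

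Both genes were tested in 5 of the pairs, and the genes of a pair did not always move together. The log2 ratio of H2BC21 to H2AC20 counts was 3.56, 3.69 and 3.35 on vehicle and 4.73, 4.71 and 4.79 on palbociclib, a difference of 1.21 without overlap, since the H2B gene rose and the H2A gene fell. In the knockout it was 3.95, 4.82 and 4.66, which spanned the treated wild-type values. For H2BC11 and H2AC11 the log2 ratio was 3.39, 3.39 and 2.84 in treated wild-type cells and 2.31, 2.33 and 2.16 in the knockout, a difference of -0.94 without overlap. H2BC4 and H2AC6 differed by -0.77, from -4.85, -4.59 and -4.88 to -5.42, -5.61 and -5.58. In both pairs the H2B transcript was reduced more than its H2A partner. H2BC12 and H2AC12 differed by -2.68 between the genotypes, with few H2AC12 counts, and H2BC15 and H2AC15 by 0.89 between treatment and vehicle. The exact two-sided permutation test of 3 against 3 libraries cannot go below p = 0.1, which it gave for each of these differences without overlap, and over the 15 tests the Benjamini-Hochberg value was 0.167.

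Other genes around the chromosome 6 cluster were seldom called between the genotypes. The 54 replication-dependent members of the cluster lie at chr6:25726063-27893891, and the variant gene H1-6 lies there too. Other genes, among them butyrophilin and zinc finger genes, interrupt this region. Of 62 tested non-histone genes within 5 Mb, 4 were higher and 2 lower in the knockout, with a median log2 fold change of 0.01. Of the 23 tested histone genes there, 12 were lower, with a median of -0.78. Over all tested genes, 14.9% were higher and 13.0% lower. The 19 non-histone genes between the first and last histone gene had a median of -0.10, with 2 higher and 1 lower. Among the 19, HFE, which starts between H1-2 and H4C3, had -1.745. On palbociclib in wild-type cells the 62 neighbours had a median of -0.03 and the 23 histone genes a median of -0.09. Around the chromosome 1 cluster, 142 neighbours had a median of 0.00 between the genotypes, and the 3 tested histone genes, H2BC21, H2AC20 and H4C14, had -0.71, -0.42 and -0.57. H4C16 and H2AJ lie close together on chromosome 12, where 42 neighbours had a median of 0.24, and had -0.24 and 0.47.

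**Figure D5:**
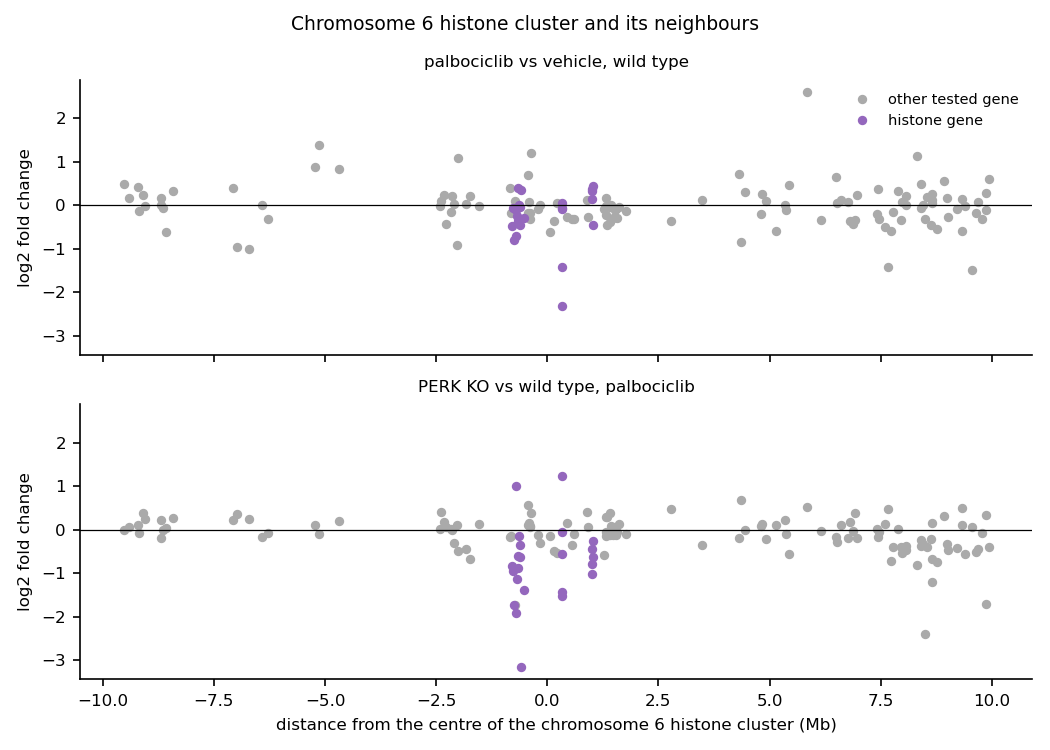
Log2 fold change of each tested gene against its distance from the centre of the chromosome 6 histone cluster in Mb, for palbociclib against vehicle in wild-type cells (top) and the knockout against wild type on palbociclib (bottom); purple dots are the 23 tested histone genes and grey dots other genes. In the bottom panel most histone genes lie below 0, with a median of -0.78, and the grey dots within 5 Mb centre on 0.01.

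The mRNAs of proteins that make and process histone mRNA were measured as a list of 22 genes, of which 21 were tested. On palbociclib 12 fell and 1, CCNE1, rose, with a median of -0.16, beside 22.3% of all tested genes lower and 21.3% higher. SLBP, the stem-loop binding protein, stood at 65.4, 67 and 68.4 CPM on vehicle, 42.6, 44 and 43.1 on palbociclib and 50.7, 48.6 and 48.6 in the knockout. It fell on palbociclib (-0.63 ± 0.049, edgeR adjusted p = 4.17e-09) and was higher in the knockout than in treated wild-type cells (0.19 ± 0.049, adjusted p = 0.0062). CCNE2, encoding a cyclin E, changed most on palbociclib (-0.78 ± 0.099, adjusted p = 2.68e-06). Between the genotypes 6 of the 21 were higher and 3 lower, with a median of 0.06, beside 14.9% and 13.0% of all tested genes, so the lower ones were near the share over all genes. POU2F1 had 48.7, 53.1 and 48.6 CPM on vehicle, 40.7, 40.5 and 41.7 on palbociclib and 27.4, 30.2 and 28.7 in the knockout, with no overlap between any of the groups (-0.51 ± 0.057 between the genotypes, edgeR adjusted p = 1.02e-06). LSM11, a subunit of the U7 particle, was higher in the knockout, at 14.9, 16 and 15.6 CPM against 12.1, 12.2 and 10.6 (0.41 ± 0.083, adjusted p = 0.000755). NPAT stood at 37.4, 40.7 and 38.5 CPM in wild-type cells and 36.1, 40.0 and 40.1 in the knockout on palbociclib, which overlapped (-0.01 ± 0.061). SRRT, a partner of the cap-binding complex, was among the 11 lower in the knockout than in vehicle-treated wild-type cells (-0.55 ± 0.055, adjusted p = 6.81e-08), where 4 of the 21 were higher. In that comparison 26.0% of all tested genes were lower and 25.7% higher.

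Of 27 tested histone chaperones and deposition factors, 17 fell on palbociclib and 2, CABIN1 and ATRX, rose, with a median of -0.27, beside 22.3% of all tested genes lower and 21.3% higher. MCM2, a helicase subunit that also carries parental histones, fell (-0.73 ± 0.061, edgeR adjusted p = 1.46e-08), as did ANP32E, which removes H2A.Z (-0.68 ± 0.091, adjusted p = 9.28e-05). In the knockout 6 were higher than in treated wild-type cells and 1, ASF1A, was lower, with a median of 0.03, so the list was called about as often as all tested genes (27.9%). With the set number as a block 11 were higher and 4 lower, ANP32E (adjusted p = 0.000208), HJURP (0.0253) and SUPT16H (0.0143) joining ASF1A, beside 19.5% and 16.9% of all tested genes. NAP1L1, an H2A and H2B chaperone, had 794, 795 and 811 CPM in wild-type cells and 1049, 1047 and 1046 in the knockout (0.39 ± 0.045, adjusted p = 1.43e-06), and NPM1 was higher as well (0.21 ± 0.047, adjusted p = 0.00215). Against vehicle, 18 chaperone genes were lower in the knockout and 3 higher, beside 26.0% and 25.7% of all tested genes. ANP32E (-0.87) and the FACT subunit SSRP1 (-0.63) changed most.

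The DNA replication genes of S phase were mostly higher in the knockout than in treated wild-type cells, while many replication-dependent histone genes were lower in the knockout. All 22 on the list fell on palbociclib, beside 22.3% of all tested genes, with a median of -0.71, led by GINS2 (-0.98 ± 0.062, edgeR adjusted p = 2.84e-10) and PRIM1 (-0.91 ± 0.072, adjusted p = 1.12e-08). In the knockout 15 were higher than in treated wild-type cells and 1, PCNA, was lower, beside 14.9% and 13.0% of all tested genes. The median was 0.22, where the 27 tested replication-dependent histone genes had a median of -0.63. MCM5, a subunit of the replicative helicase, had 175, 172 and 162 CPM in wild-type cells and 293, 309 and 278 in the knockout (0.79 ± 0.055, edgeR adjusted p = 1.85e-09), and CDC6, which loads that helicase, 129.6, 133 and 111 against 177, 189 and 156 (0.48 ± 0.079, adjusted p = 0.000431). PCNA, the sliding clamp, stood at 165, 181 and 164 CPM in wild-type cells and 143, 137 and 121 in the knockout (-0.35 ± 0.061, adjusted p = 0.000239). Against vehicle 20 of the 22 were lower in the knockout and 1, MCM5, higher, beside 26.0% and 25.7% of all tested genes. CDC6 was higher as well with the set number as a block (adjusted p = 0.152 without and 0.00303 with it). PCNA (-1.14) and the cyclin gene CCNA2 (-0.93) changed most. The lists, like the members, were drawn up with earlier results of these data known.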

How the data were processed

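Poly(A)-selected RNA of 9 U2OS libraries was sequenced, and the authors deposited 1 table of raw read counts per gene. STAR 2.7.9a, Trim Galore and the hg38 build are named in the submitters' processing notes; the sources used here do not give the gene annotation, the counting tool or its strand setting. Members and gene lists were chosen with earlier results of these data known. Symbols were taken from a table that matched 62700 of 70116 gene IDs. edgeR 4.0.16 was used with TMM scaling, its low-count filter (19408 genes, 99.91% of counts) and a robust quasi-likelihood F test on 1 model of the 3 groups, with 6 residual degrees of freedom; p-values were Benjamini-Hochberg adjusted over all tested genes and called under 0.05. Genes named with every library were those with a mean of at least 1 CPM, plus the members called for palbociclib or between the genotypes; of each list the 2 called genes with the largest change were named, with CCNE1, CABIN1, ATRX, ASF1A, PCNA, NPAT, HJURP, SUPT16H, H1-4 and the other members below 1 CPM added after their values were seen. A further variant gene is not reported here: it is in the counts and medians over variant genes but not in their sums or plots.

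The numbered sets pair the libraries: deviations from the group means, over 12907 genes, correlated at 0.175 to 0.539 in the 9 same-set pairs and at -0.401 to 0.0704 in the others. The set number differed for 7 of the 37 tested members (18.9%) against 8.07% of all genes. Replicate libraries differed by more than counting noise (chi-square per degree of freedom of 3.45 to 10.7). On simulated data for the knockout comparison, with 19094 genes, 49 of 50 genes raised 2-fold and 39 of 50 raised 1.5-fold were recovered. All changed genes had a mean above 1 CPM, and no difference between sets was simulated. Recovery of members below 1 CPM was therefore not tested. Alternatives were DESeq2 1.42.0, its size factors, no filter, 6 libraries only, the set as a block, and each library left out. Stem-loops came from GENCODE 29 transcripts, and gene positions and promoters from RefSeq (GRCh38.p14).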

Additional observations from a re-analysis of the deposited data

How the results depend on the processing

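Over 29 members in 3 comparisons, each alternative except leaving out a library kept at least 81 of 87 results (84 of 85 for the 6 libraries compared) in direction and on the same side of the threshold. With the set number as a block 6 further results passed and no call was lost, and 5 variant genes were higher in the knockout on palbociclib, against 3. With DESeq2 the count of replication-dependent genes higher in that comparison was 0, against 1. Leaving out each library in turn kept 740 of 783 results. That count then ranged from 0 to 1, replication-dependent genes lower on palbociclib from 3 to 7, and variant genes higher on palbociclib from 0 to 1. Changes of sign occurred only on leaving out a library, in values that were not called: for palbociclib the replication-dependent median ranged from -0.32 to 0.04, H2BC4 from -0.22 to 0.06, H2BC11 from -0.20 to 0.08 and H2BC12 from -0.16 to 0.05. Between the genotypes H4C9 ranged from -0.55 to 0.27, H3-3A from -0.08 to 0.01 and H2AX from -0.10 to 0.05, and against vehicle H2AC12 ranged from -0.49 to 0.53. H2BC5, in the knockout against vehicle, was also called without a filter (adjusted p = 0.0376), with 6 libraries only (0.0405) and without any of 4 libraries (0.0197 to 0.0415), and H3-3A without the first vehicle library (0.0345). Genes below 1 CPM rest on few counts a library, so a difference not called there is not shown to be absent.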

Other observations

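CENPA, the H3 variant of the centromere, lay outside the rule because of its symbol. It stood at 92.8, 83.4 and 95.9 CPM on vehicle, 64.4, 66.3 and 56.1 on palbociclib and 65.2, 56.0 and 51.4 in the knockout. It fell on palbociclib in wild-type cells (-0.54 ± 0.088, edgeR adjusted p = 0.000301), and its groups overlapped between the genotypes (-0.11 ± 0.089, adjusted p = 0.391). H3Y1, a primate-specific H3 gene, had 12, 15 and 16 counts on vehicle, 3, 1 and 6 on palbociclib and 6, 1 and 8 in the knockout, and also fell on palbociclib (-1.97 ± 0.55, adjusted p = 0.00686). The noncoding transcripts beside variant genes, H1-10-AS1, H2AZ1-DT and H3-3A-DT, were called neither for palbociclib nor between the genotypes, and H2AZ1-DT had an adjusted p of 0.0567 for palbociclib, and 0.0275 with the set number as a block.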
